A study of Mus musculus with 6 samples.

Results

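A set of 41 genes of microglia and other macrophages was examined in sorted cells of the embryonic mouse cortex, and 39 of them had a row among the 21937 genes of the table. The set was chosen by name, as genes that these cells are known to use, with complement and MHC genes left out. Earlier results of these data were known when it was chosen. Spi1 and Dock2os had no row under these symbols in the table used here. Spi1, which encodes the myeloid transcription factor PU.1, had a row under its older symbol Sfpi1, and this row is described apart from the 39. In the study, plasmids for a control shRNA, named NTC, or for one aimed at Nat14, named shNat14, were injected into the lateral ventricle at embryonic day 14.5 and electroporated into neuronal progenitors. At embryonic day 18.5, 4 days later, cells were released from the dissected cortex, and those alive and positive for GFP were collected by FACS for RNA sequencing. There were 3 NTC and 3 shNat14 libraries, and the labels give no strain, no pooling and no separate embryos or litters for them. The p-values therefore cover only the spread among these libraries, and part of it could be technical.

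The authors deposited 1 comparison of these groups, giving for each gene its mean level as log2 CPM (counts scaled to a common library size), the log2 fold change, a p-value and an adjusted p-value. It holds no values per library, so depth, group means and SDs are unknown. A negative value means less RNA in shNat14 than in NTC, as read from Nat14 itself (log2 fold change -3.31, adjusted p = 1.2e-08, the authors' deposited table). The sign of Nat14 is for that reason no check of the labels. An approximate standard error was computed for each gene as the absolute fold change divided by the normal quantile of its p-value, since the table gives no error. This takes the test statistic as normal, which is not known for the authors' test, and is unstable where p is near 1.

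Microglia are the resident macrophages of the brain. They arise from yolk sac progenitors that enter the neural tube early in development, and not from the ventricular progenitors that make cortical neurons and glia. They depend on the receptor Csf1r for survival, on transcription factors such as PU.1, Irf8 and Sall1 for their identity, and on purinergic, Fc and Toll-like receptors to sense their surroundings. In the embryonic cortex they engulf dying cells and progenitors, and related macrophages occupy the meninges, the choroid plexus and the spaces around vessels.

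PU.1 regulates many myeloid genes through a purine-rich core, so their promoters were searched for the letters GAGGAA on either strand. RefSeq windows (GRCm38.p6) of 250 bases before to 50 after a gene's start were given for 29 of the 39 genes. The letters were in at least 1 window of 16 of these 29 genes (55.2%), against 31.3% of the 27025 genes with a window. Shown are the 250 bases before the start of 3 genes, 5′ to 3′, with GAGGAA or its reverse complement TTCCTC in capitals. Fcgr1 and Ctss had negative fold changes with unadjusted p under 0.05, and Cd53 had a positive one.
Fcgr1, chr3:96293970-96294219, minus strand: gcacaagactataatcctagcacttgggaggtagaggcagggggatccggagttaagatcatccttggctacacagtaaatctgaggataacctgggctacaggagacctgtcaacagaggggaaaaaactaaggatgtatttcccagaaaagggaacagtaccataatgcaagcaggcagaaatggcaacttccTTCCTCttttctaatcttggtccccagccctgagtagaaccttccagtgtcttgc
Ctss, chr3:95526536-95526785, plus strand: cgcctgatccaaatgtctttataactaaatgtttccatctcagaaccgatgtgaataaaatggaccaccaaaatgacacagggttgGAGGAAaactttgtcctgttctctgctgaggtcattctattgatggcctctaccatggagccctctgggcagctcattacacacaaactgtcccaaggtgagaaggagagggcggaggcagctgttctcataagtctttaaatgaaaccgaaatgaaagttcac
Cd53, chr3:106790150-106790399, minus strand: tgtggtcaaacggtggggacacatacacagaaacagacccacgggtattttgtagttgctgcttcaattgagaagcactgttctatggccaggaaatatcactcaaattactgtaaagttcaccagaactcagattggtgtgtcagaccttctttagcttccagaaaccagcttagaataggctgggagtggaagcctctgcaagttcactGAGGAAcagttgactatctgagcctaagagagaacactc

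The match began 55 bases before the start in Fcgr1, 164 in Ctss and 39 in Cd53, and the latter 2 genes held a further match in the 50 bases after the start. Shorter stretches around a match show the flanks in other members, with Trem2, Laptm5 and Aif1 at negative and Pf4 at a positive fold change.
Trem2, chr17:48346349-48346378, plus strand: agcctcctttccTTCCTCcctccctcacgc
Laptm5, chr4:130913266-130913295, plus strand: gcagcctgtggcTTCCTCttttttgttctg
Aif1, chr17:35176053-35176071, minus strand: ataggcacccagTTCCTCc
Pf4, chr5:90772415-90772434, plus strand: tctgcagagcacTTCCTCat

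Genes with and without the letters were mostly negative. The 16 genes with a match had a median log2 fold change of -0.81, with 12 of 16 negative, and the 13 with a window but no match had -0.73, with 13 of 13 negative. A match is a stretch of letters and was not tied to binding of PU.1 here.

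Most microglia and macrophage genes had lower values in shNat14, and no single gene passed the authors' threshold. By the authors' deposited table, 34 of the 39 genes were negative, 87.2%, against 47.6% of the 17400 genes above the lowest mean level. The median log2 fold change was -0.88, against 0.0033 for those 17400 genes. A fold change of -1 or below was listed for 15 of the 39 genes, against 10.1% of those 17400 genes. None of the 39 stood at 1 or above, against 1580 of the 17400 genes. All 39 genes lay above the lowest level, so this filter removed no member. Members share libraries and were chosen with earlier results of these data known. Counts over them are a description rather than independent observations. In bulk RNA, fewer cells of a type and less RNA per cell cannot be told apart.

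The authors' test, whose tool is not given for certain, called 0 of the 39 genes and 34 of all 21937 genes (0.155%) at adjusted p under 0.05. At unadjusted p under 0.05, 10 of the 39 were lower (25.6%) and 0 were higher. The background was 2.84% lower and 3.51% higher among the 17400 genes. The 10 were Tlr7, Hcls1, Ctss, Lyz2, Tlr2, Tmem119, Fcgr1, Tlr4, Csf1r and Aif1. The smallest adjusted p of a member was that of Tlr7, 0.0662, followed by Hcls1 at 0.159 and Ctss at 0.809 per the authors' deposited table.

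**Figure D1:**
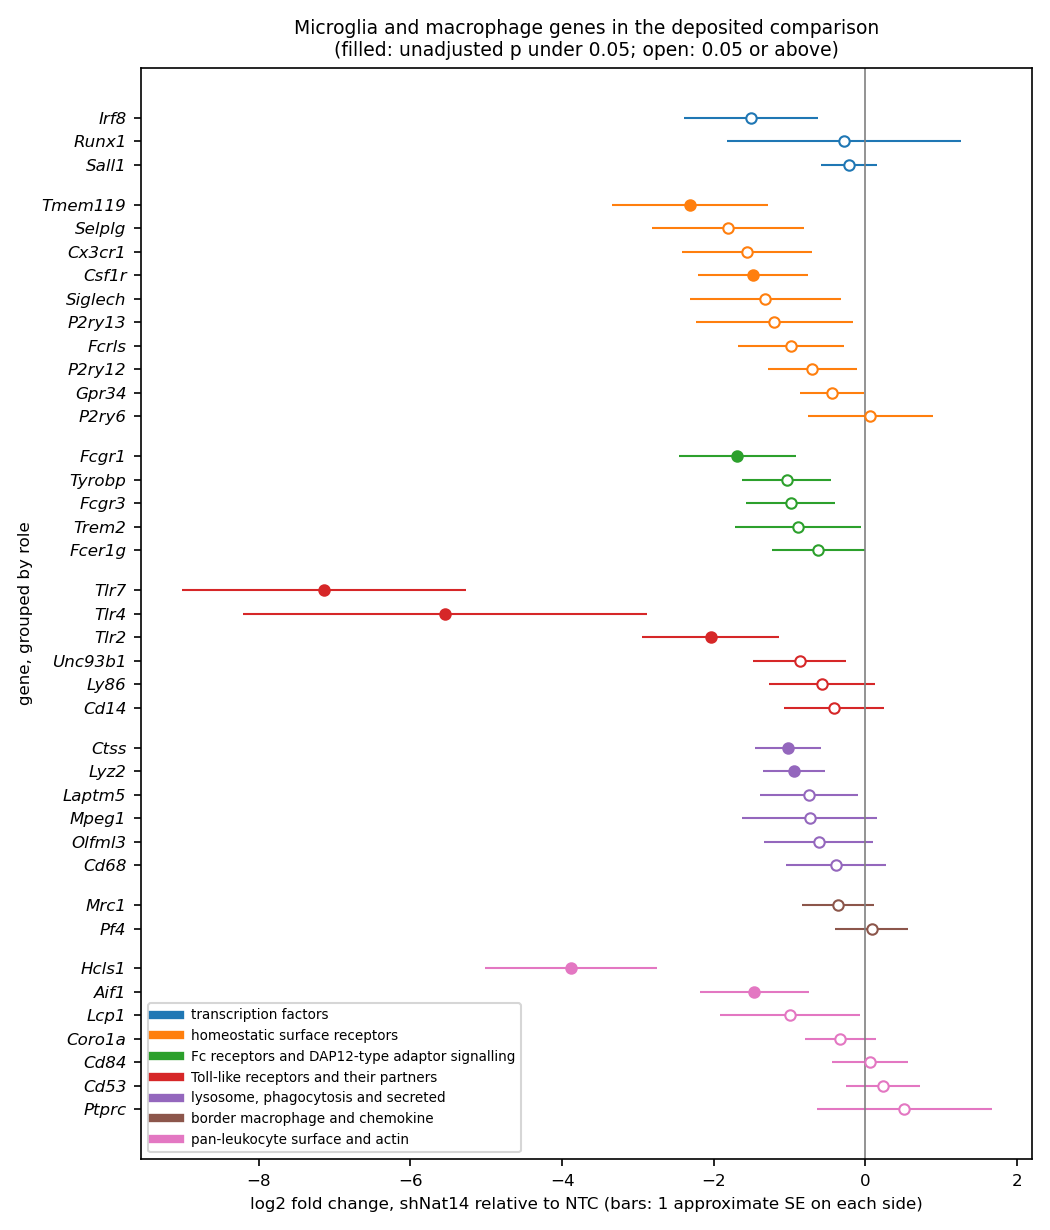
Log2 fold change of shNat14 relative to NTC (horizontal axis) for each of the 39 genes, grouped by role, with bars of 1 approximate standard error on each side; filled points have an unadjusted p under 0.05. Points lie to the left of 0 for 34 genes, and the 5 to the right are P2ry6, Pf4, Ptprc, Cd53 and Cd84.

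Transcription factors of the lineage were measured by 3 rows. Irf8, which directs progenitors to the macrophage fate, had a log2 fold change of -1.51 per the authors' deposited table (p = 0.0864), 0.351 times the NTC level. Runx1, a factor of blood cell formation, stood at -0.28 per the authors' deposited table, with an approximate standard error of 1.55 at a mean level of log2 CPM -1.17. Sall1, which maintains microglial identity but is also used by neural progenitors, stood at -0.21 with an approximate standard error of 0.37 and a mean log2 CPM of 5.0. The row under Sfpi1, for PU.1 itself, had a positive value of 0.40 with an approximate standard error of 1.15 (p = 0.730 per the authors' deposited table). With a mean level of log2 CPM -1.36, this row could not separate a fall of the size of Irf8 from no change.

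Of the 10 surface receptors of resting microglia, 9 had negative fold changes, with a median of -1.26. Tmem119, a membrane protein used to tell microglia from other macrophages, had -2.31 per the authors' deposited table (p = 0.0248, approximate standard error 1.03). Csf1r, the receptor for the growth factors Csf1 and Il34, had -1.48 (p = 0.0406), which is 0.358 times the NTC level per the authors' deposited table. Its exons overlap those of Hmgxb3 on the other strand in GENCODE M21, and the sources used here do not say whether counting used strand, so reads of this pair may be mixed. Hmgxb3 stood at -0.078 per the authors' deposited table.

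The fractalkine receptor Cx3cr1 stood at -1.56 per the authors' deposited table (p = 0.0704), and Selplg, the ligand of P-selectin, at -1.81 (p = 0.0700). The sialic acid lectin Siglech had -1.32 and the Fc receptor-like scavenger receptor Fcrls -0.97 per the authors' deposited table, both with p above 0.05. These 4 genes share the direction of Tmem119 and Csf1r, with approximate standard errors of 0.70 to 1.0.

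The purinergic receptors were less uniform. P2ry13 had -1.20 and P2ry12, the ADP receptor that steers microglial processes, had -0.70 per the authors' deposited table (p = 0.247 and 0.235). P2ry6, the UDP receptor linked to phagocytosis, was the 1 receptor with a positive value, 0.067, and an approximate standard error of 0.82. P2ry12 and P2ry13 lie within the span of Med12l on the opposite strand without exon overlap, and Med12l stood at 0.27 per the authors' deposited table. Gpr34, a lysophosphatidylserine receptor inside the span of Cask, had -0.44 per the authors' deposited table with an approximate standard error of 0.42. Cask itself stood at 0.39 at a mean level of log2 CPM 7.64 per the authors' deposited table, against 4.0 for Gpr34, and any share of Cask reads in the Gpr34 row was not tested.

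All 5 Fc receptor and adaptor genes had negative fold changes, from -1.69 to -0.62. Fcgr1, the high-affinity receptor for IgG, was the lowest at -1.69 per the authors' deposited table (p = 0.0282, approximate standard error 0.77). Tyrobp (DAP12), the adaptor that carries the signal of Trem2 and Siglech, had -1.04 per the authors' deposited table (p = 0.0766), 0.488 times the NTC level. Fcgr3, an activating low-affinity IgG receptor, had -0.98, the lipid-sensing receptor Trem2 -0.88 and the common gamma chain Fcer1g -0.62 per the authors' deposited table. None of these 4 reached an unadjusted p of 0.05.

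Toll-like receptors held the most negative values of the set. Tlr7, an X-linked endosomal receptor for single-stranded RNA, had a value of -7.14 on the log2 scale at a mean level of log2 CPM -0.12 per the authors' deposited table (p = 0.000142). It ranked 46th by p among the 21937 genes. Of 549 genes within 0.25 log2 CPM of it, 3 had a more negative fold change, so Tlr7 lies near the lower edge of the values deposited at this level. Without counts per library, the size of this fold change could not be checked, and it is not given as a bound. Tlr4, the receptor for lipopolysaccharide, had -5.54 at a mean level of log2 CPM -1.27 (p = 0.0378) per the authors' deposited table, with 20 of 552 genes of like level below it and an approximate standard error of 2.67.

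Tlr2, a receptor for bacterial lipoproteins, had -2.04 per the authors' deposited table (p = 0.0237, approximate standard error 0.90). The partners of these receptors had smaller values. Unc93b1, which escorts Tlr7 and other receptors to endosomes, stood at -0.87 per the authors' deposited table (p = 0.156). Ly86, a partner of the receptor homolog Cd180, had -0.57, and the lipopolysaccharide co-receptor Cd14 had -0.41 with an approximate standard error of 0.67 per the authors' deposited table. All 6 genes of this role were negative, with a median of -1.45 that rests on the low-level receptors and was -0.41 at or above a log2 CPM of 2, where Cd14 alone remained.

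All 6 lysosomal, phagocytic and secreted genes had negative values. Ctss, the cysteine protease cathepsin S, stood at -1.02 on the log2 scale at a mean level of log2 CPM 4.62 per the authors' deposited table (p = 0.0195), 0.493 times the NTC level. Lyz2, a lysozyme of myeloid cells, had -0.95 at a mean level of log2 CPM 3.56 (p = 0.0204) per the authors' deposited table, 0.519 times the NTC level. Their approximate standard errors of 0.44 and 0.41 are the smallest among the 10 genes with p under 0.05. Lyz2 has the close paralog Lyz1, and reads shared between them would make its value uncertain.

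The other 4 genes of this role were also negative and had p above 0.05. Laptm5, a lysosomal membrane protein, stood at -0.74, and Mpeg1, a pore-forming protein of phagosomes, at -0.73 per the authors' deposited table. The secreted protein gene Olfml3 had -0.61 and Cd68, a lysosomal glycoprotein widely used to stain phagocytes, had -0.38 per the authors' deposited table (p = 0.393 and 0.560). The median over the 6 genes was -0.74.

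Both genes typical of border macrophages had values nearer to 0 than the median of all members. Their mean levels were log2 CPM 3.20 and 2.85, and the 14 members at 2 or above, these included, had a median of -0.43. Smaller values were thus not particular to these genes. Mrc1, the mannose receptor, stood at -0.36 with an approximate standard error of 0.48, and the chemokine Pf4 at 0.085 with 0.48 per the authors' deposited table. Their intervals of 1.96 approximate standard errors ran from -1.29 to 0.58 for Mrc1 and from -0.86 to 1.03 for Pf4. By this approximation the Ctss value of -1.02 lies inside the first of these and outside the second. The difference between these genes and the microglial receptors was not tested.

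General leukocyte genes split by direction, with 4 of 7 negative. Hcls1, an actin regulator of blood cells related to cortactin, had -3.89 at a mean level of log2 CPM -0.72 per the authors' deposited table (p = 0.000607, approximate standard error 1.13). Aif1, the actin-binding protein IBA1 used to stain microglia, had -1.46 per the authors' deposited table (p = 0.0410), 0.363 times the NTC level. Lcp1, an actin bundler, stood at -0.997, and Coro1a, a coronin also used by neurons, at -0.33 with p above 0.05 per the authors' deposited table. Exons of Lcp1 overlap noncoding genes on the other strand.

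Against these stood 3 surface genes with positive values. Ptprc, the phosphatase CD45 found on all leukocytes, had 0.51 per the authors' deposited table with an approximate standard error of 1.15. The tetraspanin gene Cd53 had 0.23 and the SLAM family gene Cd84 0.060 per the authors' deposited table, with approximate standard errors of 0.49 and 0.50. The approximate intervals of Cd53, from -0.73 to 1.19, and of Cd84, from -0.92 to 1.04, did not reach -1, which 15 of the 39 genes reached or passed. They are uncertain, since the authors' test gave p = 0.637 and 0.905, and a fold change of -1 was not tested. At or above a log2 CPM of 2 this role kept Cd53, Cd84 and Coro1a, and its median was 0.060 rather than -0.33.

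**Figure D2:**
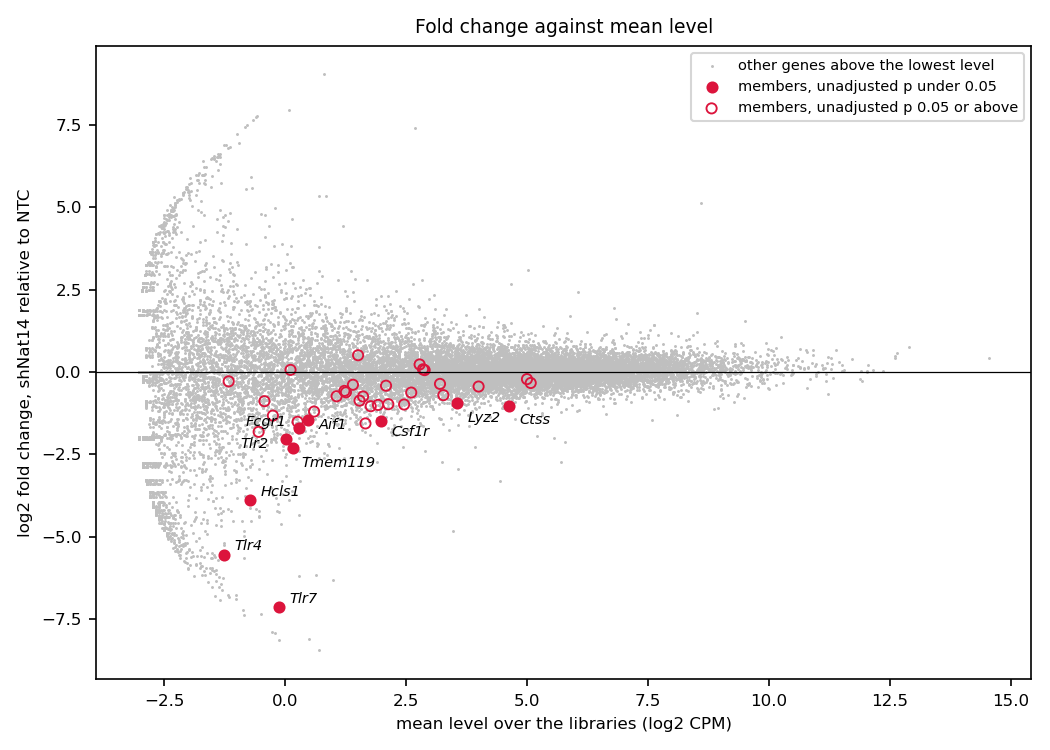
Log2 fold change (vertical axis) against mean level in log2 CPM (horizontal axis) for the 17400 genes above the lowest level in grey and the 39 genes in red, filled where unadjusted p is under 0.05. The fan of grey points widens toward low levels, where Tlr7, Tlr4 and Hcls1 lie, while Ctss and Lyz2 lie below 0 at levels where it is narrow.

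Because low-level genes scatter widely in either direction, the set was read within bands of mean level. Below a log2 CPM of 0, 7 of 7 members were negative, against 50.2% of 4519 genes, and 3 were lower at unadjusted p under 0.05, against 4.34%. From 0 to 2, 16 of 18 members were negative, against 48.4% of 2264 genes, and 5 were lower at unadjusted p under 0.05, against 3.27%. At 2 or above, 11 of 14 were negative, against 46.3% of 10617 genes, and Ctss and Lyz2 were lower at unadjusted p under 0.05, against 2.11%. The median log2 fold change was -1.81, -1.02 and -0.43 in these bands. A fold change of -1 or below was listed for 5 of 7, 9 of 18 and 1 of 14 members. Over all genes of the bands it was listed for 1426 of 4519, 216 of 2264 and 109 of 10617. The direction was thus shared by all 3 bands, and the size of the fitted value shrank as the level rose.

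Single members were measured less precisely than the typical gene of the table. The median approximate standard error of the 39 genes was 0.72, against 0.47 for the 17400 genes. Their median level was also lower, at log2 CPM 1.54 against 3.32. By band the median approximate standard error was 1.13 against 1.84 below a log2 CPM of 0. It was 0.80 against 0.77 from 0 to 2 and 0.49 against 0.37 at 2 or above. The largest unadjusted p among the 34 called genes was 7.65e-05. Exons of another gene overlapped those of 4 members, Runx1, Cx3cr1, Csf1r and Lcp1, and without these 30 of the others were negative with a median of -0.87.

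Genes of the same pathways that were not in the set were counted from 6 lists of 108 genes, all with a row. None was called. Lysosomal and phagocyte oxidase genes were negative for 18 of 22, with a median of -0.26, and 3 were lower at unadjusted p under 0.05. Ctsz, the lysosomal protease cathepsin Z, had -0.73 per the authors' deposited table (p = 0.00776), and Cybb, the catalytic subunit of the phagocyte oxidase, had -1.39 (p = 0.0411). Most of these lysosomal genes are used by all cells.

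Kinases, integrins and Rac regulators downstream of the Fc receptors were negative for 14 of 20, with a median of -0.59. Dock2, the leukocyte activator of Rac and the gene opposite Dock2os, had -5.56, and the kinase Btk had -3.48, both at a mean log2 CPM below -1 per the authors' deposited table (p = 0.00415 and 0.0118). The kinase Syk, listed under its older symbol Sykb, had 1.36 per the authors' deposited table (p = 0.0427), opposite to the adaptors Tyrobp and Fcer1g that recruit it. Of 18 border macrophage and monocyte genes 13 were negative, with a median of -0.35 and none at unadjusted p under 0.05. Stab1, a scavenger receptor, had the smallest p of that list, with -1.16 per the authors' deposited table (p = 0.0873).

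Signals that reach microglia were mixed, with 11 of 18 negative and a median of -0.27. P2rx7, an ATP-gated channel, had -1.62 (p = 0.0279), and Nrros, listed as Lrrc33, a microglial anchor of latent TGF-beta, had -1.58 (p = 0.0470) per the authors' deposited table. Cd200, a membrane protein of neurons that restrains microglia, had 0.61 at a mean level of log2 CPM 8.67 (p = 0.0138) per the authors' deposited table. The growth factor Csf1 stood at -0.053, and Il34 at -1.67 with a low mean log2 CPM of -1.08 per the authors' deposited table (p = 0.942 and 0.295).

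By sign, genes of activated states stood about evenly on either side of 0. Cytokines and chemokines were negative for 9 of 16, with a median of -0.076. Of these genes, 3 were lower (18.8%) and 1 higher at unadjusted p under 0.05, against 2.84% and 3.51% of the 17400 genes. A fold change of -1 or below was listed for 5 and of 1 or above for 1, against 1751 and 1580 of the 17400 genes. In this list Il1b, a main inflammatory cytokine, had 6.48 at a mean level of log2 CPM -1.54 (p = 0.00831) per the authors' deposited table. The chemokine Cxcl16 had -2.63 (p = 0.0258) and the cyclooxygenase Ptgs1 -1.59 (p = 0.0215) per the authors' deposited table. Of 617 genes within 0.25 log2 CPM of Il1b, 9 had a higher value, so its size also lies near the edge of the fit. Genes of axonal-tract and injury-associated microglia were negative for 7 of 14, with a median of -0.023, and Lpl, a lipoprotein lipase, had 1.26 (p = 0.0123) per the authors' deposited table. In this list Cd9, Fabp5 and Hif1a had mean levels of log2 CPM 7.48, 7.84 and 7.76, against at most 5.08 among the 39 genes. Any share of other cells in their values was not tested.

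**Figure D3:**
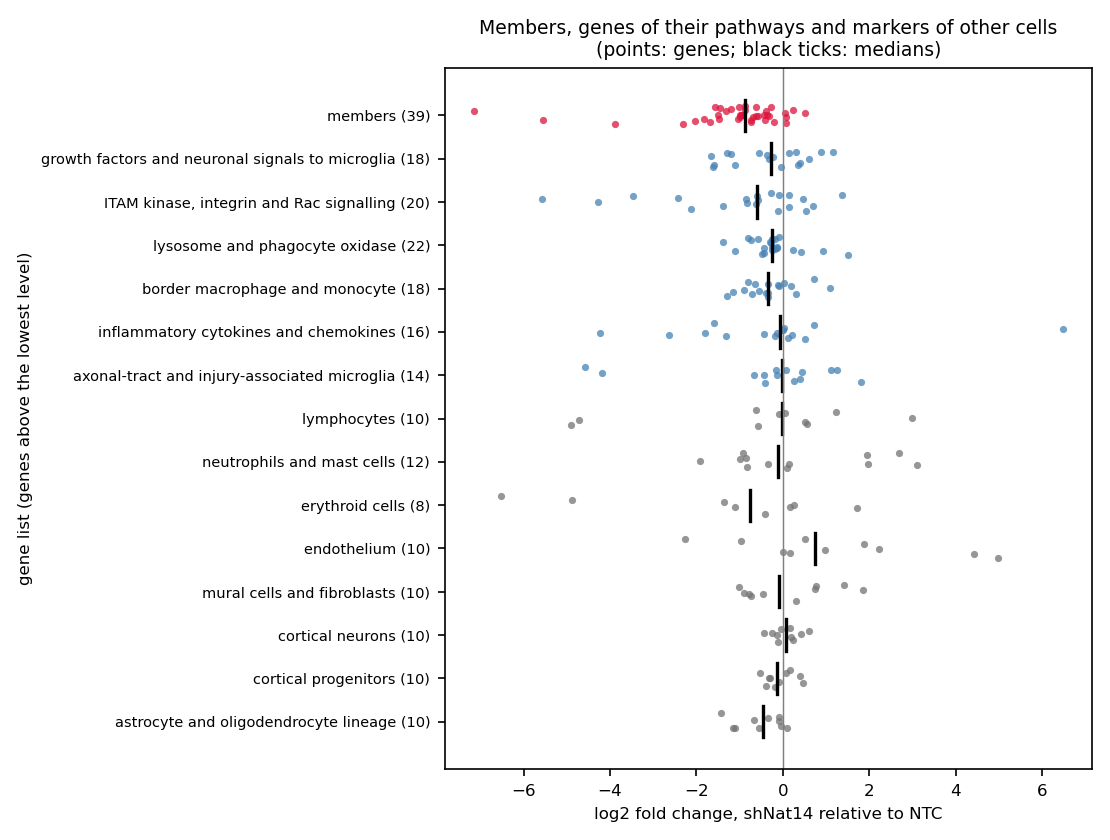
Log2 fold changes (horizontal axis) of single genes as points and list medians as black ticks, for the 39 genes (red), 6 lists of related genes (blue) and 8 lists of markers of other cells (grey), with the number of genes above the lowest level in brackets. The median of the 39 genes lies at -0.88, and those of cortical neurons and progenitors lie at 0.063 and -0.13.

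Markers of other cells that a sort could hold are given beside these values from 8 lists of 84 genes, of which none was called. The 10 markers of cortical neurons had mean levels up to a log2 CPM of 11.30, with a median of 7.38, and that of 10 cortical progenitor markers was 6.05. Of the neuronal markers Slc17a7 alone had a mean level below a log2 CPM of 0, at -1.55 per the authors' deposited table. Their median log2 fold changes were 0.063 for neurons and -0.13 for progenitors, with none at unadjusted p under 0.05 in either list. Eomes, of intermediate progenitors, had -0.54 per the authors' deposited table (p = 0.144).

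Astrocyte and oligodendrocyte lineage markers were negative for 9 of 10, with a median of -0.45. Aldh1l1, an astrocyte folate enzyme, had -1.15 (p = 0.00426) and the filament gene Gfap -1.10 (p = 0.0353) per the authors' deposited table. Erythroid markers were negative for 5 of 8, with a median of -0.76, and Alas2, an enzyme of haem synthesis in red cells, had -1.36 (p = 0.0359) per the authors' deposited table. The embryonic globin Hba-x had -6.53 at a mean level of log2 CPM -1.36 (p = 0.00832) per the authors' deposited table. Endothelial markers were negative for 3 of 10, with a median of 0.74, and the values of Emcn and Tek, 4.98 and 4.43, had p = 0.0137 and 0.0397 per the authors' deposited table. Emcn had a mean level of log2 CPM -0.21 and Tek 1.20, with approximate standard errors of 2.02 and 2.15. The median approximate standard error of this list was 1.49, so its median fold change is poorly determined.

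Markers of other blood cells stood on either side of 0. Neutrophil and mast cell markers were negative for 6 of 12, with a median of -0.12, but this pooled list split by gene. The 6 negative genes were S100a8, S100a9, Csf3r, Ngp, Camp and Ltf, all of neutrophils, from -0.33 for S100a8 to -1.91 for Ltf. The neutrophil-lineage granule genes Mpo and Elane were positive, at 1.94 and 1.98, so neutrophil genes stood on either side of 0. Kit and the mast cell genes Cpa3, Cma1 and Mcpt4 were also positive, up to 3.11 for Cpa3. Only the granule gene Ngp, at -0.98 (p = 0.0485), had an unadjusted p under 0.05 per the authors' deposited table. Of 14 lymphocyte markers 4, among them Cd3e, Ms4a1 and Ncr1, were listed at the lowest level, and 5 of the other 10 were negative, with a median of -0.0097. Cd4, the coreceptor of helper T cells, had -4.89 at a mean level of log2 CPM -2.40 (p = 0.0398) per the authors' deposited table. Mural and fibroblast markers were negative for 5 of 10, with a median of -0.080, where Col1a2, a fibrillar collagen, had -1.02 and the contractile gene Acta2 1.86 (p = 0.0358 and 0.0210) per the authors' deposited table, and Rgs5, a pericyte marker, had 1.41 (p = 0.0477). The part of the makeup of the sorted cells in the values of the microglia and macrophage genes was not tested, since the table holds no library to count it in.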

How the data were processed

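RNA of sorted cortical cells was sequenced in 3 shNat14 and 3 NTC libraries, grouped by sample title. The authors deposited 1 table of their own comparison. Per the file headers, its columns are the mean level in log2 CPM, the log2 fold change, the p-value and its adjusted form. The deposited adjusted p-values match a Benjamini-Hochberg adjustment over all 21937 genes. HTSeq 0.5.4p1, TopHat2 2.0.8, DESeq, SAMtools 0.1.19 and the human build hg19 are listed in the submitters' processing notes, so the build behind this mouse table is unresolved, and coordinates given are those of the RefSeq promoter windows. Neither prior count nor filters are given in the labels or headers.

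The members and lists were chosen with earlier results of these data known. Members were matched by symbol, and related genes by symbol or, for 4, by an older RefSeq symbol. The lowest mean level, a log2 CPM of -3.09, held 4537 genes, and 17400 lay above it. Genes were called at adjusted p under 0.05, and unadjusted p under 0.05 was counted as a description beside all genes. All members with a row could be named, and for each other list up to 2 genes per direction with the smallest p under 0.05, or the gene with the smallest p. Nat14 was named because the direction of the fold changes was read from it. Med12l, Cask, Hmgxb3, Csf1, Il34, Slc17a7 and the lymphocyte genes at the lowest level were named after their values were seen. So were Cd9, Fabp5, Hif1a and the neutrophil and mast cell genes other than Ngp. Some genes of the lists, counted there, are not reported here by name. Python 3.11.15, numpy 2.4.6, pandas 2.3.3, scipy 1.17.1 and matplotlib 3.10.9 were used, and the calculations were tested on simulated data. Alternatives were other thresholds, adjustments, level filters, centring and subsets of members.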

Additional observations from a re-analysis of the deposited data

How the results depend on the processing

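The members called rose from 0 to 1, Tlr7, with a threshold of 0.1 on the adjusted p, which called 55 genes of the table. With adjustment over genes above the lowest level, 0 members were called, against 43 of those 17400 genes. By Bonferroni correction 0 members were called, against 17 of all 21937 genes. The 10 genes lower at unadjusted p under 0.05, 25.6% of members, became 2 at p under 0.01, where no share of all genes was computed. Among the 14 members at or above a log2 CPM of 2 they were 2, or 14.3%, against 2.11% of all genes there. This level held 11 of the 34 negative members. There the median of the Toll-like receptor role was -0.41 and that of the general leukocyte role reversed to 0.060. The median over all members stayed negative under each alternative, from -0.95 to -0.43. With the longer letters GAGGAAG, 34.5% of members and 15.4% of all genes had a promoter match. The alternatives with the Sfpi1 row, without overlapping exons, without large fold changes and for the motif were chosen after seeing the data. No paired analysis was possible because single libraries have no values here, and leaving out each library was not run for the same reason. Depth is unknown, so no detection limit is given.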
